A study of Mus musculus with 25 samples.

Results

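Retinoic acid, the active derivative of vitamin A, is made, bound, sensed and destroyed by a small set of proteins, and 9 of their genes were followed here through the Lhx5 mutant mamillary neuroepithelium. They were the synthetic enzymes Aldh1a2 and Aldh1a3, the degrading enzymes Cyp26a1, Cyp26b1 and Cyp26c1, the binding proteins Crabp1 and Crabp2, the receptor Rarb and the reductase Dhrs3. The genes were chosen by name and not by a cut on any measured value, but with earlier results of these data known. They are 9 of the 18820 genes with a transcript cluster (the group of probes that reads one transcript) carrying a single symbol, and each of the 9 had 1 such cluster.

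The mamillary body, a hypothalamic nucleus with a role in memory, arises from the mamillary neuroepithelium in the caudal hypothalamus. This neuroepithelium was dissected from C57BL/6 embryos at E10.5, and total RNA was hybridised to Affymetrix Mouse Gene arrays, 1 array per sample. In all there were 13 arrays of Lhx5 mutant embryos, labelled KO, and 12 of wild-type embryos (WT), which the labels call biological replicates. The mutants were homozygous for a floxed Lhx5 allele that had not met Cre (Lhx5 fl/fl), which the study describes as a hypomorph with loxP sites in introns. The exons are still present, so Lhx5 transcript does not check the label, and it averaged 7.92 ± 0.32 log2 units in KO and 7.97 ± 0.22 in WT (SD, n = 13 and 12). Values throughout are log2 units from robust multiarray averaging (RMA), so that a difference of 1 is a 2-fold change, and levels of different genes are not compared because each probe set has its own brightness.

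The arrays labelled KO fell into 2 sets. Across 35542 probe sets KO replicates 1 to 10 and KO replicates 11 to 13 had the same mean value, the median of the absolute differences being 1.33e-06. Differences were therefore fitted in limma with genotype and a term for KO replicates 1 to 10, so that each difference is that of KO 11 to 13 against WT, and replicates 1 to 10 inform only the spread. Array medians lay between 4.64 and 4.76. All 11 measured genes of a mamillary and caudal hypothalamic list (Foxb1, Sim1, Nkx2-1, Otp and others) and all 10 of a neuroepithelial progenitor list (Sox2, Pax6, Nes and others) were above background, against 2 of 11 of a hindbrain and spinal cord list (Hoxb3 and Hoxa4). Lists for mesenchyme and neural crest (13 of 13), endothelium (8 of 8), erythroid cells (5 of 5) and surface ectoderm (10 of 11) were also above background. In such bulk samples fewer cells of a type and less RNA per cell cannot be told apart.

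Retinoic acid is formed from retinaldehyde by the ALDH1A enzymes and enters the nucleus, where it binds receptors of the RAR family, which pair with RXR partners on DNA. CYP26 enzymes oxidise it, and DHRS3 turns retinaldehyde back into retinol, so that the level in a tissue is set between source and sink. In the early embryo Aldh1a2 is the main source in trunk mesoderm, Aldh1a3 serves the eye and the nasal region, and the Cyp26 genes shield the head and tail. Rarb, Cyp26a1 and Dhrs3 are themselves induced by retinoic acid in many cells.

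A known link between the signal and these genes lies in promoter sequence, and it is shown here for the 2 genes whose promoter windows held it. Windows of 300 bases, 250 before and 50 after the transcription start, were taken from RefSeq (GRCm38.p6). They were searched on both strands for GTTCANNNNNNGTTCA, a direct repeat of the letters GTTCA with 6 bases between. GTTCA is only the end of the receptor's longer binding unit, so whole units in such a repeat have fewer than 6 bases between. The table held windows for 7 of the 9 genes (9 windows), and not for Aldh1a3 and Crabp2. In the lines below each window runs 5′ to 3′ on the strand of its gene, and capitals mark the repeat.
Rarb: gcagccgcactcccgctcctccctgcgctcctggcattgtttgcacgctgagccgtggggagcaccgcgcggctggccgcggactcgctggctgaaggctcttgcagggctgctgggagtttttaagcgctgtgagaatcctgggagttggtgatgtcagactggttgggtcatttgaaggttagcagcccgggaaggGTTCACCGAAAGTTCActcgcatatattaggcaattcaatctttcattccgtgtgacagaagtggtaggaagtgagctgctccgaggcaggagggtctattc
Cyp26a1: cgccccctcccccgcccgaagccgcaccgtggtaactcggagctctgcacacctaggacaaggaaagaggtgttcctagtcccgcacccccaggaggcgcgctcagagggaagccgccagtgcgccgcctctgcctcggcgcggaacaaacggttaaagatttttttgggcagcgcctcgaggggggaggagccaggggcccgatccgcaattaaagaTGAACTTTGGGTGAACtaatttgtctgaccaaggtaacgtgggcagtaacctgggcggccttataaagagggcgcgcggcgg
The Rarb window (chr14:16575427-16575726, minus strand) carried the repeat from position -52 to -37 relative to the start, as GTTCACCGAAAGTTCA. The Cyp26a1 window (chr19:37697558-37697857, plus strand) carried it from position -32 to -17, and read on the opposite strand it is GTTCACCCAAAGTTCA. These letters occurred in 25 of 32851 windows of this length, or 0.0761%, and in the windows of no other of the 7 genes. The variant GGTCANNNNNNGGTCA occurred in 33 windows (0.10%), none of them of these genes. A match in letters is a description and shows no binding.

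None of the 9 genes was called in KO against WT at an adjusted p below 0.05 (limma, 2-sided), where 7 of 28940 clusters, 0.0242%, were. None passed an unadjusted p of 0.05 either, where 10.3% of all clusters did. In 5 of the 9 the difference was above 0 and in 4 below, with a median of 0.03, against 0.01 over all clusters. For none of the 9 did KO 11 to 13 and WT fail to overlap, where 1.15% of all clusters had no overlap. With genotype as the only term, 3 genes (Aldh1a3, Cyp26c1 and Crabp2) passed an unadjusted p of 0.05 and none an adjusted one, where 16.7% of all clusters passed the adjusted test. That fit counts KO 1 to 10 as if their mean were independent of that of KO 11 to 13.

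**Figure D1:**
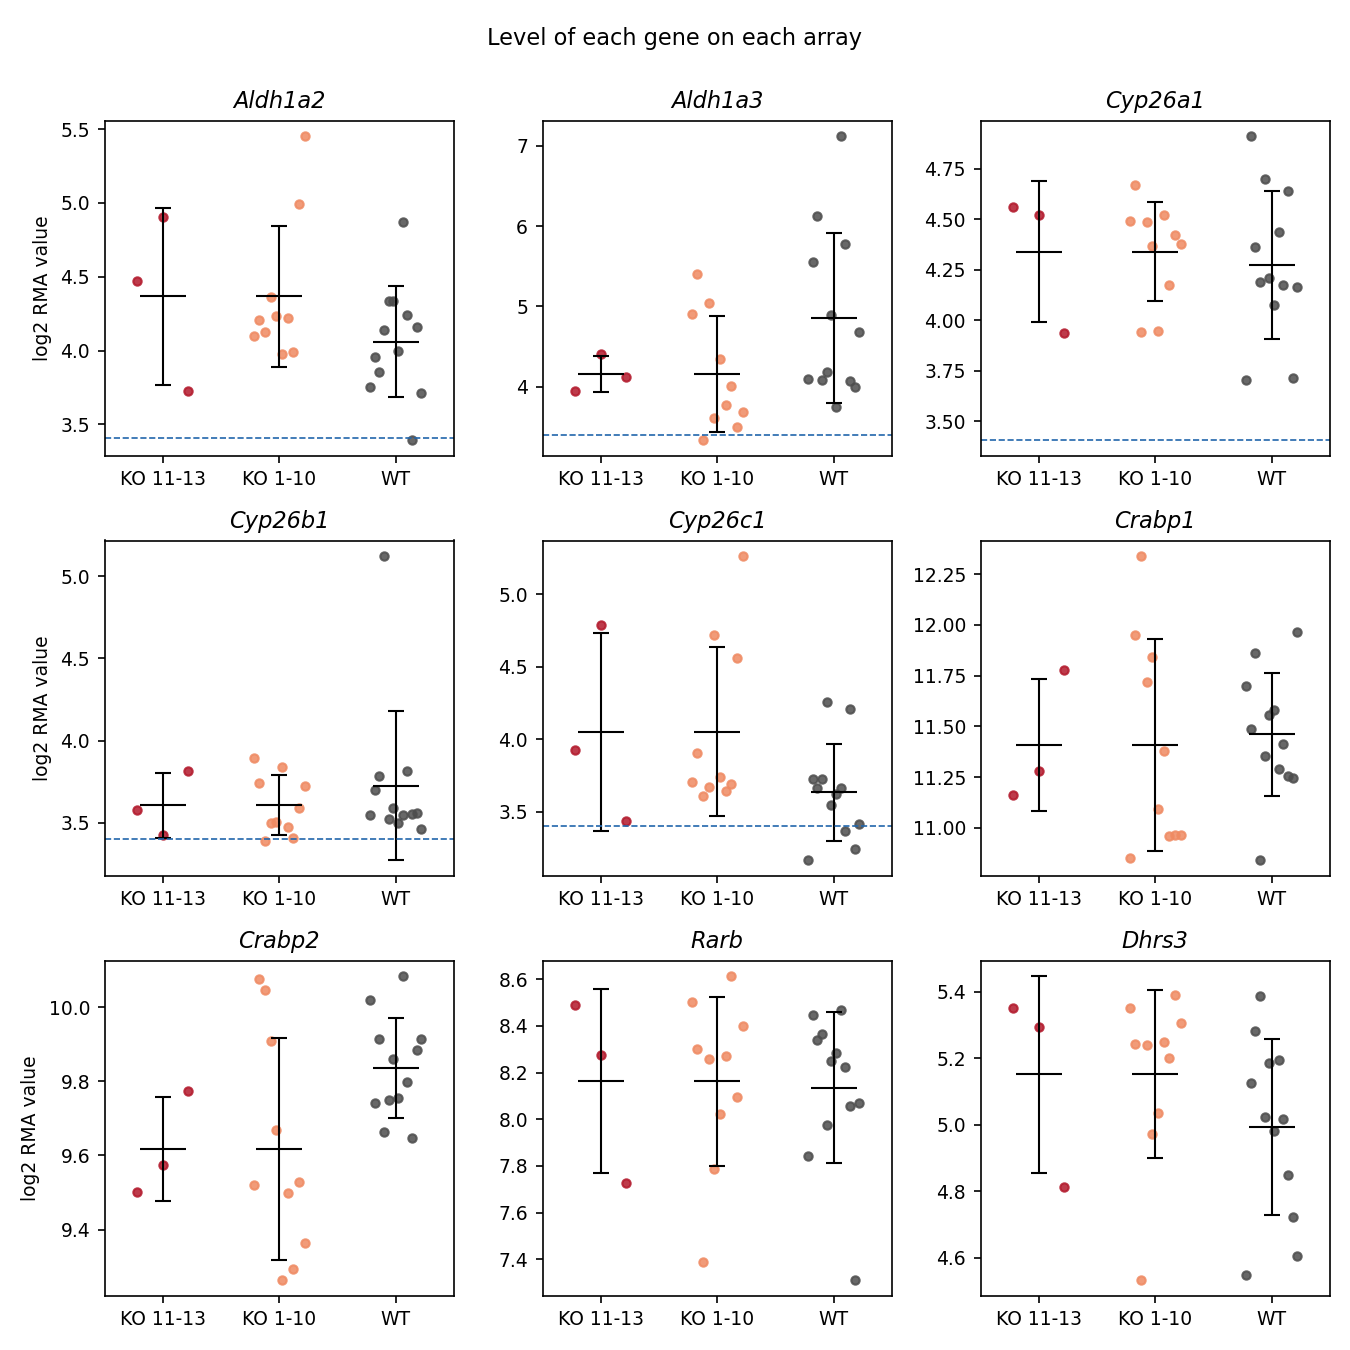
Log2 RMA value (vertical axis) of each of the 9 genes on each array, for KO 11 to 13, KO 1 to 10 and WT from left to right. Points are arrays, black bars the mean ± SD, and the dashed line the background level of 3.40. The 3 sets overlapped for every gene, and Aldh1a3 reached 7.12 on one WT array.

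**Figure D2:**
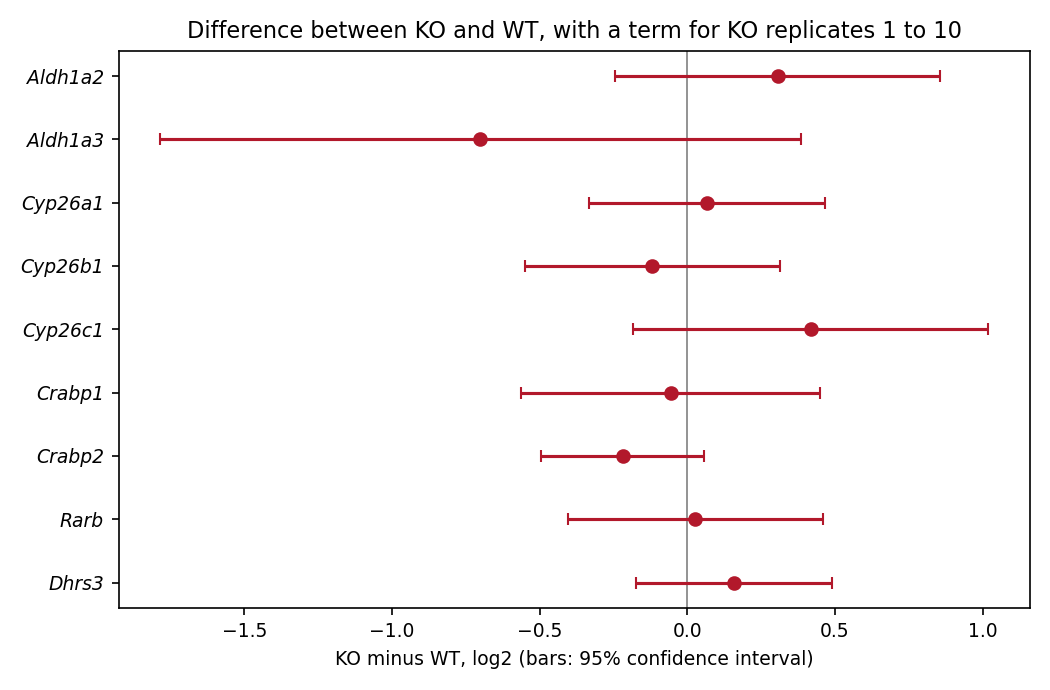
Difference between KO and WT in log2 units (horizontal axis) for the 9 genes, from the fit with a term for KO replicates 1 to 10. Points are the differences and bars their 95% confidence intervals, all of which include 0, the widest being that of Aldh1a3.

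The synthetic enzymes were dim and variable. Aldh1a2, the main embryonic retinaldehyde dehydrogenase, had 4.47, 4.90 and 3.72 in KO replicates 11, 12 and 13. KO 1 to 10 ran from 3.97 through a median of 4.21 to 5.46, and WT from 3.39 through 4.07 to 4.87. The KO 11 to 13 values thus lay at both the upper and the lower side of the WT range. The difference was 0.31 ± 0.27 (SE; 95% confidence interval -0.24 to 0.86; limma p = 0.264, adjusted p = 0.746), and an exact permutation test on KO 11 to 13 and WT, with 455 possible splits, gave p = 0.284 (the smallest it can give is 0.0022). Without KO 13, the lowest of the 3, the difference was 0.63 (unadjusted limma p = 0.0466, adjusted p = 0.736), and without KO 12, the highest, it was 0.04.

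High Aldh1a2 came from a few arrays. KO replicates 9, 10 and 12 had 4.99, 5.46 and 4.90, and WT replicate 8 had 4.87, while no other array was above 4.47. Those 3 KO arrays were among the 4 lowest of the series for the neuroepithelial progenitor list (9.10, 9.02 and 9.43, where KO arrays ran up to 9.84 and WT from 9.45 to 10.13). Their surface ectoderm levels, 6.45, 6.44 and 6.41, were among the 4 highest of the 25 arrays. Over KO 1 to 10 Aldh1a2 followed the neuroepithelial list with r = -0.85 (permutation p = 0.0129, adjusted p = 0.155 over 144 relations; Spearman rho = -0.54, p = 0.114; n = 10), and r was 0.26 without the 2 farthest arrays. In WT that r was -0.0057 (n = 12). With the surface ectoderm list r was 0.65 in KO 1 to 10 (permutation p = 0.0416, adjusted p = 0.244). In WT it was 0.55 (permutation p = 0.0617, adjusted p = 0.289). Without the 2 farthest arrays these were 0.44 and 0.49. With the mamillary list r was 0.62 in WT (permutation p = 0.0367, adjusted p = 0.240), and 0.31 without the 2 farthest arrays. The part of these tissues in the Aldh1a2 level was not tested.

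The 3 genes whose deviations were most like those of Aldh1a2 over the 25 arrays, among 13296 genes above background, were Chsy3 (r = 0.88), Foxf1 (0.87) and Myf5 (0.83). These r values describe deviations from the mean of each of the 3 sets and carry no test. Foxf1 is a forkhead gene of mesoderm, and Myf5 a determination gene of skeletal muscle. Foxf1 had 7.86, 7.95 and 7.22 in KO replicates 9, 10 and 12, the 3 highest values of all arrays, with WT replicate 8 next at 7.20. Without KO 10, where Aldh1a2 deviated most, the 3 correlations were 0.84, 0.84 and 0.80. With the mesenchyme and neural crest list, however, r of Aldh1a2 was 0.37 in KO 1 to 10 (permutation p = 0.292, n = 10). In WT it was -0.18 (permutation p = 0.561, n = 12). Without the 2 farthest arrays these were 0.01 and 0.19.

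Aldh1a3, the retinaldehyde dehydrogenase of the eye and nasal region, was the most variable of the 9. It had 3.95, 4.41 and 4.13 in KO replicates 11, 12 and 13. Values in KO 1 to 10 ran from 3.33 through 3.89 to 5.40, and WT from 3.75 through 4.43 to 7.12, a 10.4-fold range. All 3 of the KO 11 to 13 arrays lay in the lower part of the WT range, and the 4 highest arrays of the series were WT replicates 8, 3, 9 and 2 (7.12, 6.12, 5.77 and 5.55). The difference was -0.70 ± 0.53 (95% confidence interval -1.79 to 0.38; limma p = 0.196, adjusted p = 0.694; exact permutation p = 0.305), and the interval ran from a 0.29-fold to a 1.31-fold level in KO. With genotype as the only term the limma p was 0.0381 and the adjusted p 0.134. The SD of Aldh1a3 among KO 1 to 10, 0.72, stood at the 99.3rd percentile of all clusters, and that among WT arrays, 1.06, at the 99.8th.

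Aldh1a3 moved with genes of the optic vesicle. The list held 11 optic vesicle and pigment genes, of which 10 were measured and 9 were above background, the exception being Tbx5. Their mean level was 4.72 to 4.93 in KO 11 to 13, 4.17 to 5.89 in KO 1 to 10 and 4.95 to 6.36 in WT, so that KO 11 to 13 lay below every WT array by this summed measure. All 10 measured members had a difference below 0 (median -0.51), with 3 of them (Pmel, Rax and Lhx2) at an unadjusted limma p below 0.05 and none called after adjustment. Of all 28940 clusters 13957 had a difference below 0, and 1201 were lower at that unadjusted p. Over KO 1 to 10 Aldh1a3 followed the list with r = 0.86 (permutation p = 0.0012, Spearman rho = 0.85, p = 0.0030, n = 10), and over WT with r = 0.86 (permutation p = 0.00091, rho = 0.80, p = 0.0027, n = 12). Adjusted over 144 relations of genes with marker lists, the p of r was 0.0566 in both sets, short of 0.05. Without the 2 farthest arrays r was 0.91 in KO 1 to 10 and 0.71 in WT. Rax is also in the study's list of genes lowered in the mutant neuroepithelium. Whether the level of the optic list came from optic cells or from the neuroepithelium itself was not tested. The part of optic tissue in the Aldh1a3 difference was not tested either.

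The genes most like Aldh1a3 were Pla2g5 (r = 0.90), Mitf (0.88) and Slc38a8 (0.84). Mitf is the master gene of pigment cells and of the retinal pigment epithelium, and was itself in the optic list. It had 4.95, 4.91 and 4.53 in KO replicates 11, 12 and 13, from 4.12 to 5.67 in KO 1 to 10, and from 4.42 to 6.15 in WT, with the WT maximum again on replicate 8. Without WT 8 the correlations were 0.92, 0.86 and 0.88.

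**Figure D3:**
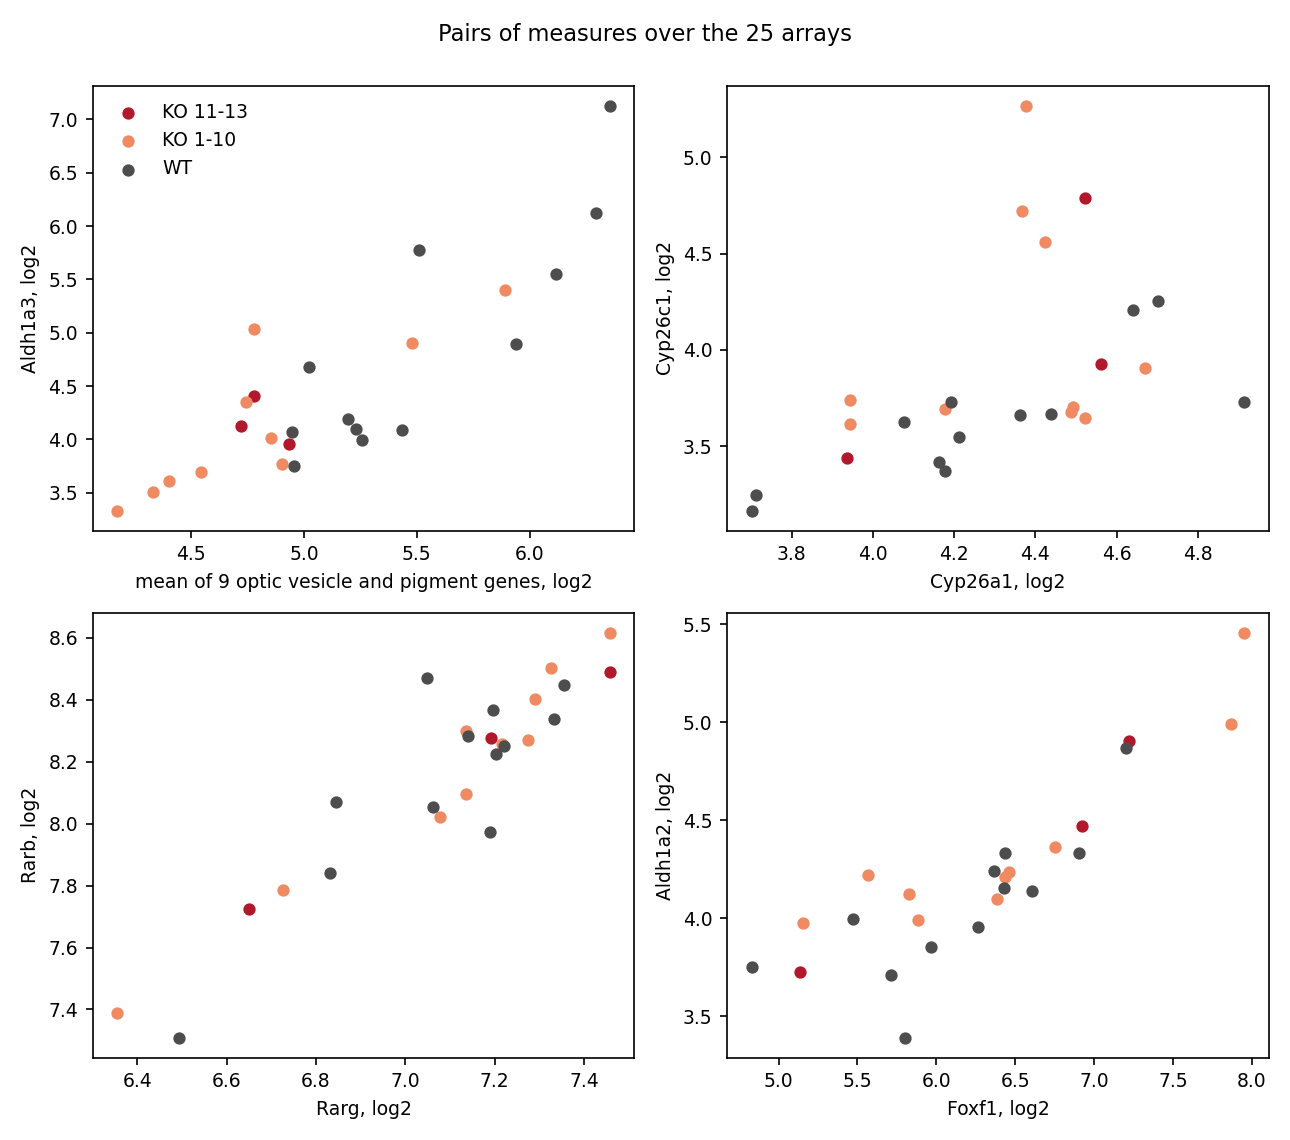
Log2 values of pairs of measures on the 25 arrays, with KO 11 to 13 in dark red, KO 1 to 10 in orange and WT in grey. Aldh1a3 rises with the mean of 9 optic vesicle and pigment genes in KO 1 to 10 and in WT (r = 0.86 in each). Cyp26c1 and Cyp26a1 had r = 0.18 in KO 1 to 10 and 0.80 in WT, and Rarb rises with Rarg and Aldh1a2 with Foxf1 in both.

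The degrading enzymes were near background. That level, 3.40, is the 95th percentile of the mean level of 1006 olfactory receptor clusters, genes not expected in this tissue. Cyp26a1, the retinoic acid hydroxylase with the repeat in its promoter, had 4.56, 4.52 and 3.94 in KO replicates 11, 12 and 13. The range in KO 1 to 10 went from 3.94 through 4.40 to 4.67, and WT from 3.70 through 4.20 to 4.91, all above background. The groups overlapped over nearly the whole range, and the difference was 0.07 ± 0.19 (95% confidence interval -0.33 to 0.47; limma adjusted p = 0.943; exact permutation p = 0.778). It was 0.27 without KO 13 and turned below 0 without KO 11 (-0.0450) or KO 12 (-0.0247).

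Cyp26b1, the paralogue best known from hindbrain, limb and gonad, had 3.58, 3.42 and 3.82 in KO replicates 11, 12 and 13, from 3.39 to 3.89 in KO 1 to 10 and from 3.47 to 5.12 in WT. Only WT replicate 4 stood apart, at 5.12, and no other array of the series was above 3.89. The difference of -0.12 ± 0.21 (limma adjusted p = 0.890; exact permutation p = 0.622) was 0.01 without that array, -0.03 without KO 12 and -0.22 without KO 13. In KO 1 to 10 Cyp26b1 ran against the 2 genes of the hindbrain and spinal cord list that were above background (n = 10). There r was -0.79 (permutation p = 0.0094, adjusted p = 0.155) and rho -0.76 (permutation p = 0.0153), with r = -0.71 without the 2 farthest arrays. In WT r was -0.37 (n = 12), but rho was 0.01, and r was 0.25 without the 2 farthest arrays. The genes most like Cyp26b1, Grid2ip (r = 0.65), Sox1ot (0.65) and Cdk18 (0.64), shared WT replicate 4 to different degrees, since without that array r was 0.06, 0.36 and 0.53. Sox1ot, the overlapping transcript of the progenitor gene Sox1, had its highest value of the series there as well, 6.99, and no other array was above 6.38.

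Cyp26c1, the paralogue of head mesenchyme and rhombomeres, had 3.93, 4.79 and 3.44 in KO replicates 11, 12 and 13. KO 1 to 10 ran from 3.61 through 3.72 to 5.27, and WT from 3.17 through 3.64 to 4.26, with all 13 KO arrays and 9 of 12 WT arrays above background. Of the 3 KO arrays, 1 lay above the WT maximum and 2 within the WT range. The difference was 0.42 ± 0.29 (95% confidence interval -0.18 to 1.02; limma p = 0.165, adjusted p = 0.663; exact permutation p = 0.125). It was 0.05 without KO 12 and 0.72 without KO 13 (unadjusted limma p = 0.0396, adjusted p = 0.726). With genotype as the only term the limma p was 0.0264 and the adjusted p 0.105.

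KO replicates 9, 10 and 12, the arrays with the most Aldh1a2, were also among the 4 highest for Cyp26c1 (4.56, 5.27 and 4.79, with KO 5 at 4.72). Over KO 1 to 10 these genes followed each other with r = 0.83 (permutation p = 0.0106, adjusted p = 0.152 over 72 relations; rho = 0.44, p = 0.204; n = 10), which was 0.25 without the 2 farthest arrays, and over WT r was -0.06 (n = 12). The relation thus rests on those arrays. The genes most like Cyp26c1 were Eif2ak2 (r = 0.78), an interferon-induced kinase, Tas2r135 (0.76), a bitter taste receptor, and Sema3d (0.76), a secreted semaphorin of neural crest and mesenchyme.

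Cyp26a1 and Cyp26c1 are neighbours on chromosome 19 with no annotated gene between them. In KO 1 to 10 the r of their levels was 0.18 (n = 10). Over WT arrays they followed each other with r = 0.80 (permutation p = 0.0019, adjusted p = 0.0673) and rho = 0.86 (p = 0.00043, adjusted p = 0.0310, or 0.0634 on deviations from the mean of each embryo sex; n = 12). Without WT 2 and WT 5, the 2 arrays farthest in Cyp26a1, r was 0.87. WT replicates 1 and 11, which that omission kept, were lowest for both genes (3.70 and 3.71 for Cyp26a1, 3.17 and 3.25 for Cyp26c1). For Cyp26c1 those values were below background. WT replicates 5 and 10 were highest for Cyp26c1 (4.26 and 4.21) and came next after WT 2 for Cyp26a1 (4.70 and 4.64). A difference between the 2 sets was not tested. In WT both genes also followed the mesenchyme and neural crest list, with r = 0.73 for Cyp26a1 (permutation p = 0.0065, adjusted p = 0.139; rho = 0.52, p = 0.0839) and r = 0.76 for Cyp26c1 (permutation p = 0.0049, adjusted p = 0.139; rho = 0.77, p = 0.0048), which was 0.74 and 0.75 without the 2 farthest arrays. That list's level was 7.48 to 7.98 in KO 11 to 13, 7.18 to 8.10 in KO 1 to 10 and 7.01 to 7.86 in WT. By p the closest list for Cyp26a1 in WT was that of endothelium, with r = 0.69 (permutation p = 0.0023, adjusted p = 0.0828; rho = 0.80, p = 0.0024; n = 12) and r = 0.72 without the 2 farthest arrays. The part of either list in the relation between these genes was not tested. The genes most like Cyp26a1 were Col9a1 (r = 0.80), a cartilage and notochord collagen, Atp2b1 (0.80), a calcium pump, and Itgb5 (0.79), an integrin subunit.

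The binding proteins were bright. Crabp1, which carries retinoic acid in the cytoplasm and can deliver it to CYP26 enzymes, had 11.16, 11.28 and 11.78 in KO replicates 11, 12 and 13. Over KO 1 to 10 it ran from 10.85 through 11.24 to 12.34, and over WT from 10.84 through 11.45 to 11.96. The groups overlapped fully, with a difference of -0.06 ± 0.25 (95% confidence interval -0.56 to 0.45; limma adjusted p = 0.964; exact permutation p = 0.787). It was -0.24 without KO 13 and turned above 0 without KO 11 (0.0661) or KO 12 (0.0072).

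Crabp2, which passes retinoic acid to the nuclear receptors, had 9.50, 9.57 and 9.77 in KO replicates 11, 12 and 13. Levels were 9.26 to 10.08 in KO 1 to 10 (median 9.52) and 9.65 to 10.08 in WT (median 9.83). KO 11 and 12 lay below all 12 WT arrays and KO 13 within their range. The difference, -0.22 ± 0.13 (95% confidence interval -0.49 to 0.06), had the smallest p of the 9 genes, with a limma p of 0.116, an adjusted p of 0.603 and an unadjusted exact permutation p of 0.0286. In the limma fit on the 15 arrays of KO 11 to 13 and WT alone p was 0.0231 (adjusted p = 0.367), and with genotype as the only term p was 0.0126 (adjusted p = 0.0652). The SD of Crabp2 was 0.30 among KO 1 to 10, at the 91.8th percentile of all clusters, and 0.14 among WT, at the 44.6th. Crabp2 ran against the mesenchyme and neural crest list in KO 1 to 10 (r = -0.69, permutation p = 0.0269, adjusted p = 0.228; rho = -0.56, p = 0.0956; n = 10), with r = -0.13 without the 2 farthest arrays. In WT it did so too (r = -0.69, permutation p = 0.0119, adjusted p = 0.155; rho = -0.85, p = 0.00079, adjusted p = 0.108; n = 12), with r = -0.65 without them. Of the 13 genes of that list 12 had a difference above 0 (median 0.16), where 14983 of 28940 clusters did, and none was called by limma. In KO 1 to 10 the relation of Crabp2 with the endothelial list was the stronger (r = -0.80, permutation p = 0.0067, adjusted p = 0.139; rho = -0.76, p = 0.0146; n = 10), with r = -0.52 without the 2 farthest arrays, while in WT r was -0.21. All 8 endothelial genes had a difference above 0 (median 0.11), against the same 14983 of 28940 clusters, and none was called by limma. The part of either list in the Crabp2 difference was not tested.

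Crabp1 and Crabp2 followed each other in KO 1 to 10 with r = 0.87 (permutation p = 0.0014, adjusted p = 0.0673; rho = 0.73, p = 0.0210; n = 10), and r was 0.73 without the 2 farthest arrays. In WT r was 0.47 (n = 12). KO replicate 3 was highest of all arrays for Crabp1 (12.34), and KO replicates 2 and 3 were highest of the KO arrays for Crabp2 (10.08 and 10.05). The genes most like Crabp1 were Mab21l2 (r = 0.92), Irx5 (0.92) and Pax7 (0.91). Pax7 marks dorsal neural tube and midbrain, Irx5 is an Iroquois patterning gene, and Mab21l2 is expressed in midbrain and eye. All 3 had their series maximum on the array with the most Crabp1, KO replicate 3, where Pax7 was at 7.18, Irx5 at 8.28 and Mab21l2 at 9.78. Without that array r was still 0.91, 0.89 and 0.89. In KO 1 to 10 Crabp1 ran against the endothelial list (r = -0.86, permutation p = 0.0011, adjusted p = 0.0566; rho = -0.76, p = 0.0153; n = 10; r = -0.73 without the 2 farthest arrays), whose level was 7.33 to 7.65 in KO 11 to 13, 7.22 to 7.66 in KO 1 to 10 and 6.62 to 7.46 in WT. The part of endothelium in the Crabp1 level was not tested. The genes most like Crabp2 were Meis1 (r = 0.81), a homeobox gene induced by retinoic acid in limb, Wfdc1 (0.80) and Mir18 (0.80), a microRNA of a proliferation cluster.

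Rarb, the retinoic acid receptor with the repeat in its promoter, had 8.49, 8.28 and 7.73 in KO replicates 11, 12 and 13. The values ran from 7.39 through 8.26 to 8.61 in KO 1 to 10, and in WT from 7.31 through 8.24 to 8.47. The low arrays were KO 3 (7.39), KO 13 (7.73), KO 5 (7.79), WT 11 (7.31) and WT 1 (7.84), so each group had some. The difference was 0.03 ± 0.21 (95% confidence interval -0.40 to 0.46; limma adjusted p = 0.978; exact permutation p = 0.908), which covers a 0.76-fold to a 1.37-fold level in KO. It was 0.25 without KO 13 and turned below 0 without KO 11 (-0.14), KO 12 (-0.0287) or WT 11 (-0.0476).

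Of 13296 genes, the one most like Rarb was another receptor of the same ligand, Rarg (r = 0.92, and 0.91 without WT 11), followed by Alx4 (0.91), a homeobox gene of craniofacial mesenchyme, and Crym (0.89), a thyroid hormone binding protein. Rarg had 7.46, 7.19 and 6.65 in KO replicates 11, 12 and 13, from 6.36 to 7.46 in KO 1 to 10 and from 6.49 to 7.36 in WT, and its lowest arrays, KO 3 and WT 11, were those of Rarb. Within sets the r of Rarb with Rarg was 0.97 in KO 1 to 10 and 0.85 in WT. Rarb followed the mesenchyme and neural crest list with r = 0.76 in KO 1 to 10 (permutation p = 0.0111, adjusted p = 0.155; rho = 0.65, p = 0.0488; n = 10) and r = 0.65 in WT (permutation p = 0.0301, adjusted p = 0.228; rho = 0.14, p = 0.669; n = 12). Without the 2 farthest arrays these were 0.51 and -0.50, so that the WT relation rests on those arrays. By rank Rarb also followed the optic vesicle and pigment list. There rho was 0.71 in KO 1 to 10 (permutation p = 0.0273) and 0.63 in WT (permutation p = 0.0322). Adjusted p was 0.32 in both, with r = 0.33 and 0.75 without the 2 farthest arrays. In KO 1 to 10 r was 0.71 with the mamillary list (permutation p = 0.0261, adjusted p = 0.228). In WT r was 0.77 with the endothelial list (permutation p = 0.0346, adjusted p = 0.238). Without the 2 farthest arrays those were 0.42 and -0.31.

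Dhrs3, the retinaldehyde reductase that limits retinoic acid synthesis, had 5.35, 5.29 and 4.81 in KO replicates 11, 12 and 13. KO 1 to 10 ran from 4.53 through 5.24 to 5.39, and WT from 4.55 through 5.02 to 5.39. KO 13 lay in the lower part of the WT range and KO 11 and 12 in the upper part, and the difference was 0.16 ± 0.16 (95% confidence interval -0.17 to 0.49; limma adjusted p = 0.791; exact permutation p = 0.389). It was 0.06 without KO 11, 0.09 without KO 12 and 0.33 without KO 13.

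Dhrs3 and Rarb followed each other in KO 1 to 10 with r = 0.85 (permutation p = 0.0048, adjusted p = 0.115; rho = 0.55, p = 0.106; n = 10) and in WT with r = 0.71 (permutation p = 0.0069, adjusted p = 0.125; rho = 0.78, p = 0.0046; n = 12). Without the 2 arrays farthest in Rarb r was 0.28 in KO 1 to 10, where it rested on those arrays, and 0.68 in WT. Crym was again among the genes most like Dhrs3 (r = 0.84), after the transporter Slc35f5 (0.85) and Lhfpl2 (0.85). In KO 1 to 10 Crabp1 ran against both Rarb (r = -0.71, permutation p = 0.0189, adjusted p = 0.171; rho = -0.71, p = 0.0261) and Dhrs3 (r = -0.72, permutation p = 0.0130, adjusted p = 0.156; rho = -0.60, p = 0.0723). Without the 2 farthest arrays these r were -0.61 and -0.58, while in WT r was 0.02 and -0.41.

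Of the 72 relations between the 9 genes (36 pairs in each of 2 sets), none passed an adjusted p of 0.05 by Pearson's r, and 1, Cyp26a1 with Cyp26c1 in WT, passed by rank. At an unadjusted p below 0.05 there were 6 in KO 1 to 10 and 5 in WT, and only Rarb with Dhrs3 was among them in both. The median r was 0.16 in KO 1 to 10 and 0.12 in WT. Of the 144 relations with marker lists none passed an adjusted p of 0.05.

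**Figure D4:**
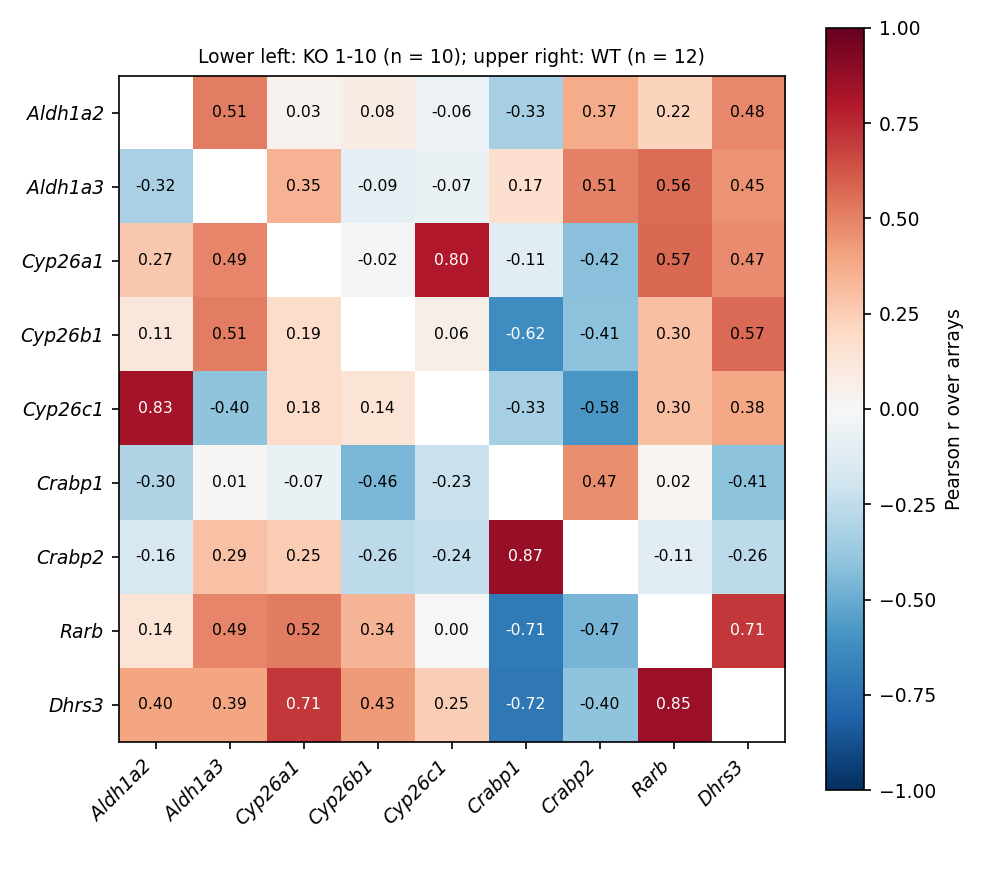
Pearson r between each pair of the 9 genes over arrays, with KO 1 to 10 (n = 10) below the diagonal and WT (n = 12) above it. Red is positive and blue negative. Rarb with Dhrs3 was positive in both sets (0.85 and 0.71), while Aldh1a2 with Cyp26c1 was 0.83 in KO 1 to 10 and -0.06 in WT.

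Other genes of the pathway were read from 6 lists, with 63 genes measured. None was called, and at an unadjusted limma p below 0.05 there were 1 higher and 3 lower in KO, against 10.3% of all clusters. The median difference was 0.00 over the 63, as over all clusters to within 0.01. With genotype as the only term 8 were called (3 higher, 5 lower), against 16.7% of all clusters.

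Of 18 genes that interconvert retinol and retinaldehyde, 1 passed the unadjusted test, and it had the smallest p of the 63. Rdh5, the 11-cis retinol dehydrogenase of the retinal pigment epithelium, averaged 3.96 ± 0.18 in KO and 4.38 ± 0.13 in WT (SD, n = 13 and 12), with a difference of -0.41 ± 0.10 (limma p = 0.00048, adjusted p = 0.145). KO 11 to 13 all lay below WT, which gave the smallest possible exact permutation p, 0.0022. Rdh5 was the 1 gene of the 63 without overlap, where 1.15% of all clusters had none. Rdh8, the next by p, with a mean level (3.09) below background, differed by 0.15 ± 0.11 (limma adjusted p = 0.656), and Rdh10, the main embryonic retinol dehydrogenase, by 0.11 ± 0.08 (limma adjusted p = 0.663).

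Among 12 genes of retinol uptake, transport and storage none passed the unadjusted test. Lrat, which esterifies retinol, differed by 0.20 ± 0.11 and Rbp2, a cellular retinol binding protein of the gut, by 0.18 ± 0.11 (limma adjusted p = 0.539 and 0.580). The mean level of Rbp2 (3.20) was below background, and that of Lrat (3.42) only just above it. Of 5 further genes of synthesis and transport the smallest p belonged to Cyp1b1, which can make retinoic acid independently of the dehydrogenases in chick (0.30 ± 0.19, limma adjusted p = 0.616), and to Aldh1a7 (-0.35 ± 0.33, limma adjusted p = 0.769). Aldh1a1, a further member of the ALDH1A group, named here after its values were seen, had the widest spread, with 3.88 ± 1.32 in KO and 4.62 ± 1.55 in WT (SD, n = 13 and 12) and a difference of -0.74 ± 0.88 (limma adjusted p = 0.826).

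All 6 other receptors were above background and none passed the unadjusted test. Ppard, a fatty acid receptor that can also respond to retinoic acid, differed by 0.11 ± 0.07 and Rxrb by -0.08 ± 0.07 (limma adjusted p = 0.612 and 0.704), while Rarg differed by 0.02 ± 0.18. Of 7 cofactors 6 had a difference below 0, where 13957 of 28940 clusters did. Med1, a subunit of the Mediator complex that docks on nuclear receptors, averaged 8.58 ± 0.06 in KO and 8.71 ± 0.06 in WT (SD, n = 13 and 12; -0.13 ± 0.05, limma p = 0.0105, adjusted p = 0.307). Ncoa3, a receptor coactivator, differed by -0.12 ± 0.06 (limma adjusted p = 0.502).

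Of 15 measured genes known as targets of retinoic acid in other tissues, 1 was higher and 1 lower at an unadjusted limma p below 0.05. Cdx1, a caudal homeobox gene whose KO and WT means (3.36 and 3.11) were both below background, differed by 0.25 ± 0.10 (limma adjusted p = 0.354). Nr2f1, an orphan receptor of the forebrain, averaged 8.42 ± 0.27 in KO and 8.78 ± 0.25 in WT (SD, n = 13 and 12), a difference of -0.36 ± 0.16 (limma p = 0.0381, adjusted p = 0.447; exact permutation p = 0.0308).

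**Figure D5:**
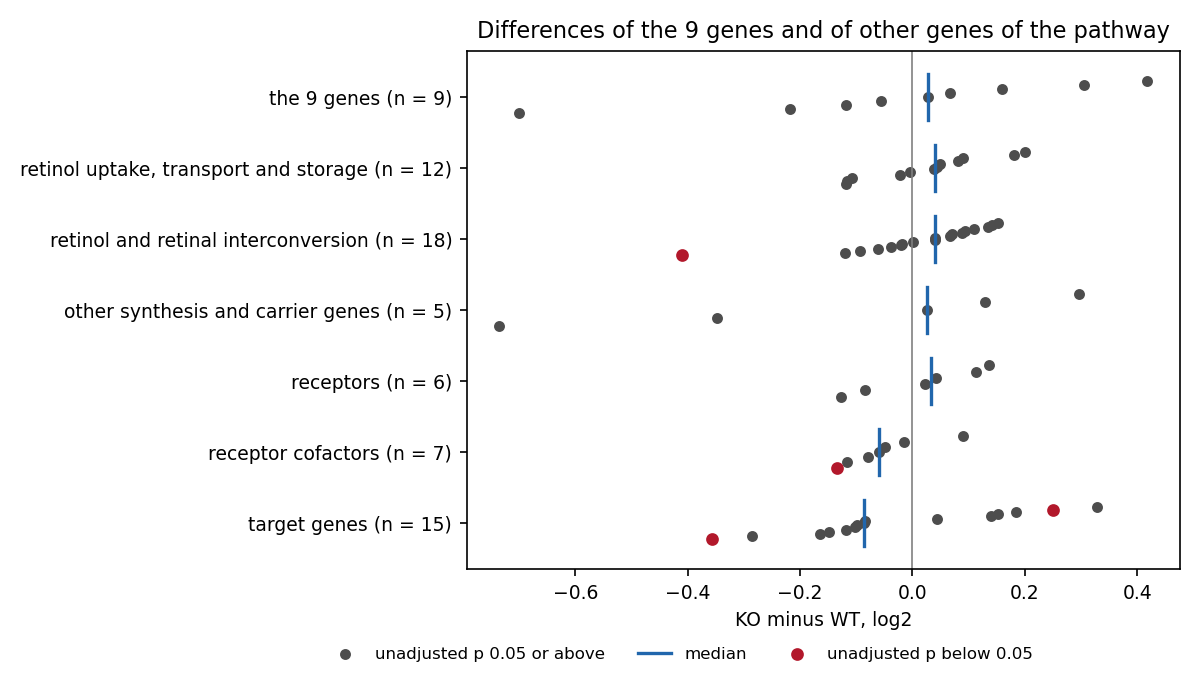
Difference between KO and WT in log2 units (horizontal axis) for the 9 genes and for 63 other genes of the pathway in 6 lists. Each point is a gene, red where the unadjusted limma p was below 0.05, and the blue line is the median of the list. Rdh5, at -0.41, is the lowest of the red points.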

How the data were processed

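Total RNA of 13 Lhx5 mutant and 12 wild-type samples was hybridised to 1 array each. The authors deposited 1 table of log2 expression values made by RMA, for which their processing notes name R 2.7.0, affy and Expression Console 1.0. How batches were treated is not given in the sources used here. Among the deposited values 14 cells, on 11 arrays, held other numbers, above the log2 range (over 14), and were set missing, none of them in the 9 genes. Of 35556 probe sets, 6616 without annotation were left out, and 28940 clusters were tested, 21218 of them with a single symbol, 1881 with several and 5841 with none. In all 21185 single symbols matched a RefSeq gene (GRCm38.p6). No filter on low values was applied, and all 9 genes were above background on average in both groups. The precision is limited by the number of arrays.

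Fits were made in limma 3.58.1 (R 4.3.3) on all clusters, with moderated variances, Benjamini-Hochberg adjustment and a threshold of 0.05. Exact permutation tests used KO 11 to 13 and WT. Correlations were tested within KO 1 to 10 and within WT with 100000 permutations, 2-sided. The fits and correlations were tested on simulated data. Plots used matplotlib 3.10.9 (Python 3.11.15).

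The 9 genes and the lists were chosen with earlier results of these data known. Named beside them were the 2 genes of smallest p in each pathway list and the 3 genes most like each of the 9. Outside that rule Rdh10, Aldh1a1 and some genes of the marker lists were named as well. Some items of the lists are not reported here. Alternatives were genotype alone, KO 11 to 13 and WT alone, repeated quantile normalization, median centring, omitting clusters below the median level, limma-trend, array weights, embryo sex, the replicate number as a block, and each array left out.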

Additional observations from a re-analysis of the deposited data

Results flagged for a closer look

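Dhrs3 on KO replicate 3 was 4.53, far below the other 9 arrays of KO 1 to 10, which lay between 4.97 and 5.39. Its gap to the nearest array was 0.514 of the range of the set, past Dixon's 95% critical value for 10 arrays. Chance alone puts about 1 in 20 such sets past that value, and both ends of all 9 genes were looked at in KO 1 to 10. The same array had the lowest Rarb of KO 1 to 10 (7.39), the highest Crabp1 of the series (12.34) and the lowest level of the mesenchyme and neural crest list in that set (7.18, where the others ran up to 8.10).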

How the results depend on the processing

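None of the 9 genes was called under any alternative, nor was any of the 63 other pathway genes except with genotype as the only term, where 8 were. Over the alternatives other than leaving out each array, all 76 differences of the 9 genes kept their sign (smallest limma adjusted p 0.0652, Crabp2 with genotype alone). For part of them this was fixed in advance. KO 11 to 13 with WT alone, limma-trend and omission of dim clusters return the main difference, and so does genotype alone, as the KO set means are equal. Under others the size moved. Array weights moved Cyp26a1 to 0.13, Cyp26b1 to -0.18, Crabp1 to -0.15 and Rarb to 0.08, and repeated quantile normalization moved Cyp26a1 to 0.04 and Rarb to 0.05. With each array left out 217 of 225 differences kept their sign. The largest exception was Rarb without KO 11, at -0.14 against 0.03 in the main fit. The genes with exceptions had ranges of -0.0450 to 0.27 for Cyp26a1, -0.22 to 0.0086 for Cyp26b1, -0.24 to 0.0661 for Crabp1 and -0.14 to 0.25 for Rarb. Without KO 11, 12 or 13 other differences also moved by over 1.5 times, with ranges of 0.04 to 0.63 for Aldh1a2, 0.05 to 0.72 for Cyp26c1 and 0.06 to 0.33 for Dhrs3. Over all clusters the count called was 7 in the main fit and moved to 4825 with genotype alone, 1 after repeated quantile normalization, 12 after median centring, 4 without dim clusters (fewer clusters tested, and only 4 of the 9 genes), 30 with array weights, and between 0 (without KO 13) and 26 (without WT 10) with each array left out. The cause of these shifts was not tested. On deviations from the mean of each embryo sex, the count of correlations between the 9 genes that passed stayed at 0 by Pearson's r, and the rank correlation of Cyp26a1 with Cyp26c1 in WT no longer passed (adjusted p = 0.0634).

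With a replicate block beside the term, each difference rested only on KO 11 with WT 11 and KO 12 with WT 12. KO 13 had no WT array of its number, and arrays numbered 1 to 10 informed the term. In that fit 0 clusters were called, and 2354 of 28940 passed an unadjusted limma p of 0.05. Cyp26a1, Cyp26c1, Rarb and Dhrs3 were among these, with differences of 0.60, 1.03, 0.69 and 0.66. The block moved Aldh1a2 to 0.76, Aldh1a3 to -0.16, Cyp26b1 to -0.01, Crabp1 to -0.38 and Crabp2 to -0.36. Deviations of arrays with the same number correlated between -0.33 and 0.43, above 0.1 for 4 of 12 numbers, and were not treated as pairs in the main fit. No alternative cluster of the 9 genes and no misprinted cell in them was there to try.

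With the term, the standard error was 1.65 times that with genotype alone at the median cluster. For Aldh1a3, Aldh1a2 and Cyp26c1 it was 0.53, 0.27 and 0.29, against 0.32, 0.16 and 0.18 with genotype alone. The smallest difference detectable with 3 KO arrays was not computed.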
